A study of Mus musculus with 4 samples.

Results

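St18 is 1 of the 32285 genes counted in single liver cells of mice fed chow, fed a high-fat diet, or fed a high-fat diet and treated with a herbal formula. It was chosen by its measured levels in HFD and NCD libraries, which differed in opposite directions in myeloid cells and in NK or T cells. Its differences between the groups are therefore given as descriptions, with no test. St18 encodes a zinc finger transcription factor of the MYT1 family, whose other members are Myt1 and Myt1l. Proteins of this family bind DNA through clusters of zinc fingers and are known mainly from nerve and endocrine cells, where they can recruit the SIN3 and histone deacetylase corepressors or the LSD1 corepressor and can dampen Notch signalling. St18 itself is also known from fibroblasts, where it has been linked to the response to TNF.

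All mice were male C57BL/6J animals. The NCD group (1 library) received normal chow, and the HFD group (2 libraries) received a high-fat diet that induces non-alcoholic fatty liver disease. The JQF group (1 library) received the same diet. Only after the diet had induced the disease was it also given Jiangtang Qingre Formula, a mixture of Chinese medicinal herbs, by gavage. The NCD and HFD mice received distilled water instead of the formula. Perfused livers were digested and freed of red blood cells and dead cells, and single cells were sequenced with the 10x Genomics 3' kit, which reads the ends of transcripts and tags each molecule with a unique molecular identifier (UMI). NCD and JQF have 1 library each and therefore no spread of their own. The error given beside an HFD mean is the SD of its 2 libraries.

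After filtering, 29025 cells remained, between 5578 and 9399 per library, with 61038644 to 92611935 UMIs per library and a median of 7424 to 12769.5 UMIs per cell. Depth per cell was highest in NCD, which also held the smallest share of cells with a UMI of Ptprc (CD45, carried by blood cells), 37.6% against 83.1% to 91.5% in the other 3 libraries, so the label of the samples as immune or hematopoietic stem cells does not describe the whole mixture. Pairs of libraries shared 14 to 30 cell barcodes, 0.185% to 0.334% of the smaller library. Cells were grouped without using St18 itself, and a cluster was given a cell type name only from marker genes. These names therefore mean macrophage-like, monocyte-like and so on.

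The St18 gene lies on mouse chromosome 1 (GRCm38), plus strand, from base 6487231 to base 6860940. It spans 373710 bases, of which 6464 (1.73%) are exonic in 13 annotated transcripts, 10 of them coding. No other annotated gene overlapped it. Nearly all of the gene is therefore intron, and whether intronic reads were counted is not given in the sources used here. Of the neighbouring genes, Alkal1, which lies before it, had 124 UMIs in the kept cells, and Pcmtd1, which lies after it, had 36495. The other members of the MYT1 family were nearly silent, with 6 UMIs of Myt1 and 21 of Myt1l in the whole data set, against 3229 of St18.

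Macrophages, monocytes and dendritic cells (DC) carried St18. These 3 classes made up 32.1% of the kept cells and held 3075 of the 3229 St18 UMIs (95.2%), in 763 of the 824 cells with at least 1 St18 UMI, called positive cells here. NK and T cells made up 32.7% of the kept cells and held 85 UMIs (2.63%), in 29 cells. Over all libraries together, the St18 level, scaled to 1000000 UMIs of the class (CPM), was 28.2 in macrophages, 24.8 in monocytes and 18.6 in DC. Neutrophils, the other large myeloid class, had 3.93 CPM, hepatocytes 3.47 (6 UMIs in 2 cells), NK cells 1.89 (15 of 17 UMIs from 2 NCD cells), epithelial cells 1.29 and T cells 1.00. These lower classes had another order by the mean of the HFD libraries, with 8.88 ± 11.5 CPM in hepatocytes, 5.12 ± 7.24 in epithelial cells, 2.89 ± 1.65 in neutrophils, 0.949 ± 0.595 in T cells and 0.511 ± 0.284 in NK cells (SD, n = 2), and most of these neighbours did not differ beyond their spread. The rest of the order ran down to 0.189 CPM in plasmacytoid DC (1 UMI in 396 cells), 0.109 in B cells (1 UMI in 1389 cells) and 0.0824 in endothelial cells (6 UMIs in 5326 cells). The 56 stellate cells or fibroblasts had no St18 UMI. In the HFD libraries the first 3 could not be ordered: 41.5 ± 22.0 CPM in macrophages, 25.1 ± 2.03 in DC and 21.2 ± 7.50 in monocytes (SD, n = 2) differed by less than the spread of the macrophage values.

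**Figure D1:**
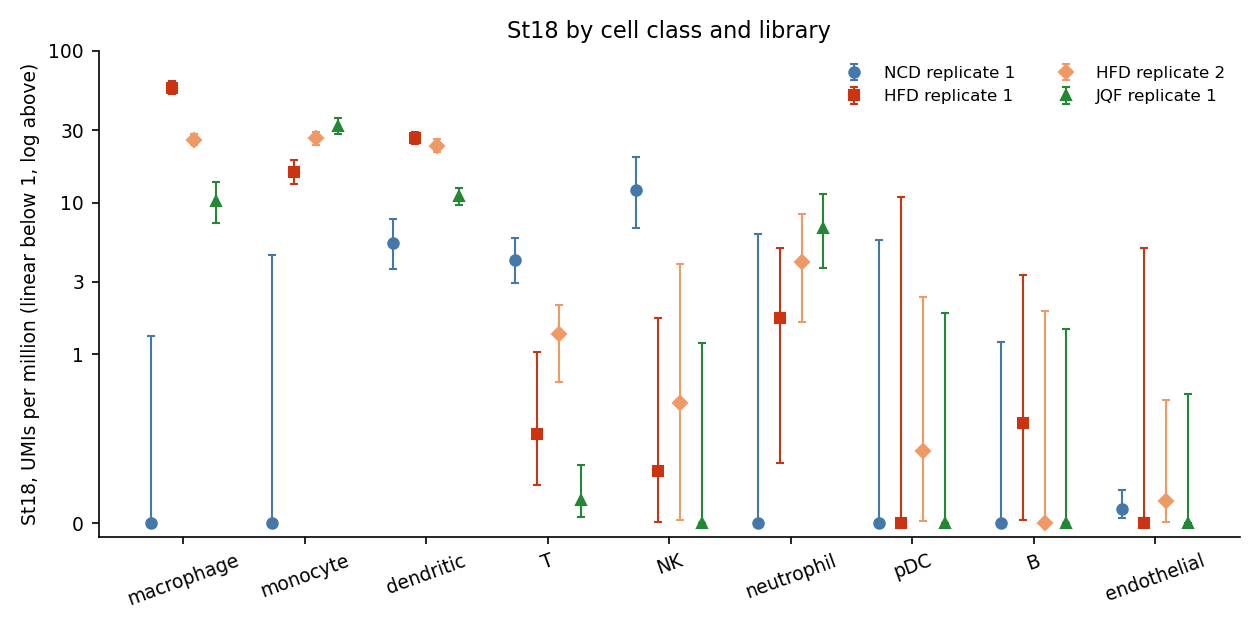
St18 level in CPM of the class (vertical axis, linear near 0 and logarithmic above) for each cell class and library. Bars are exact Poisson 95% intervals, which cover counting error only. Macrophages rise from 0 in NCD to 26.0 and 57.1 CPM in the HFD libraries, while NK and T cells stand highest in NCD, at 12.1 and 4.198 CPM.

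In macrophages, the resident and recruited phagocytes of the liver, no St18 UMI was found in NCD, in 158 cells, which allows a share of positive cells of up to 1.90%. HFD 1 had 57.1 CPM and HFD 2 had 26.0, from 104 of 499 cells (20.8%) and 185 of 1958 cells (9.45%). JQF had 10.2 CPM, from 17 of 345 cells (4.93%). Both HFD libraries thus stood above NCD and above JQF, and their mean was at least 38.4-fold higher than the level that 3 UMIs would give in the NCD library (24.03-fold for HFD 2 alone). This bound rests on the NCD value of 0. With cells of at least 1000 genes and at most 10% mitochondrial UMIs, NCD macrophages had 14 St18 UMIs in 2 of 142 cells (4.90 CPM), and the HFD mean of 34.9 CPM was 7.12-fold the NCD level (exact Poisson 95% interval 4.25 to 13.03 for the counting error of the NCD UMIs). The JQF level was 31.3 CPM below the HFD mean, a gap larger than the HFD SD of 22.0 but close to the gap between the HFD libraries themselves. The summed level of 7 B cell markers in these macrophages was 1157 CPM in JQF against 28.1 to 66.4 in the other libraries, and the summed level of 10 endothelial markers was 1222 CPM in NCD against 223 to 443. Their part in the St18 difference was not tested.

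In monocytes, which circulate and give rise to tissue macrophages, NCD again had no St18 UMI, in 63 cells, which allows up to 4.76% positive cells. HFD 1 had 15.9 CPM (45 of 893 cells), HFD 2 had 26.5 (107 of 1563 cells) and JQF had 32.1 (68 of 643 cells). The HFD mean was at least 5.82-fold higher than the NCD level that 3 UMIs would give (4.36-fold for HFD 1 alone). With each library clustered on its own, the monocyte class of NCD grew to 160 cells with 19 St18 UMIs in 5 of them (5.85 CPM), and the HFD mean of 25.8 CPM was 4.401-fold the NCD level (2.82 to 7.31). The cell mixture differed as well: 47 of the 63 NCD monocytes (74.6%) were classical or nonclassical monocytes, kinds almost empty of St18 in every library, against 38.4% in HFD 1, 30.1% in HFD 2 and 27.4% in JQF. In the other monocytes St18 was at 0 in NCD (16 cells, where 3 UMIs would give 13.4 CPM), 26.8 CPM in HFD 1, 36.6 in HFD 2 and 43.2 in JQF. The part of the mixture in the difference was not tested further. JQF was 10.9 CPM above the HFD mean, against an HFD SD of 7.50. JQF monocytes had a median of 13630 UMIs per cell, against 8380 and 9884 in the HFD libraries. When each cell was thinned to 3000 UMIs and shallower cells were left out, the share of positive cells was 4.57% in JQF and 3.33% and 4.64% in the HFD libraries, and the JQF level (24.3 CPM) fell between those of HFD 1 (16.2) and HFD 2 (34.2). JQF thus lay below both HFD libraries in the macrophage class but not in the class named monocytes, with or without thinning. The monocyte values rest mainly on subclusters that met no marker of classical or nonclassical monocytes, as described with the finer groups. That difference between the classes was not tested.

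In DC, the cells that present antigen to T cells, the NCD library did contain St18, at 5.42 CPM from 6 of 183 cells (3.28%). HFD 1 and HFD 2 were close to each other at 26.5 and 23.7 CPM, from 83 of 967 and 83 of 1024 cells. JQF had 10.99 CPM, from 65 of 1020 cells (6.37%). The HFD mean was 4.63-fold the NCD level, and JQF was at 0.438 of the HFD mean, 14.1 CPM lower. Both gaps were several times the HFD SD of 2.03 CPM. Of the 29 NCD UMIs, 14 came from 2 cells of a subcluster that also carried endothelial genes. Without the subclusters that carried endothelial or T cell genes, NCD had 15 UMIs in 4 of 148 cells (3.50 CPM), and the HFD mean was 7.25-fold that level. The fold was 7.12 with at least 1000 genes and at most 10% mitochondrial UMIs. It was 26.2 without the 3 cells of highest St18 in each library, which held 86.2% of the NCD UMIs, so its size rests on few NCD cells.

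St18 in macrophages lay mostly in 1 cluster, cluster 15, which also held most of the cells. It was called lipid-associated because it met 6 of the 7 markers of fat-laden macrophages (Trem2, Cd9, Spp1, Gpnmb, Fabp5, Mmp12 and Lgals3). The markers were counted only against the other macrophage clusters. The finer grouping named 497 macrophages lipid-associated, against 2228 cells in cluster 15. Cluster 15 held 95.1% of the St18 UMIs of the class and 75.3% of its cells (96.6% and 96.0% in HFD 1). Its St18 level was 0 in NCD (34 cells), 59.9 CPM in HFD 1 (99 of 479 cells), 31.2 in HFD 2 (174 of 1539 cells) and 17.1 in JQF (16 of 176 cells). The HFD mean of 45.6 ± 20.3 CPM was at least 6.09-fold higher than the NCD level that 3 UMIs would give. The cluster of Kupffer cells (cluster 20), the resident liver macrophages, had 2 St18 UMIs in 634 cells, both in HFD 2. By the finer grouping within the class, Kupffer cells had 13 UMIs in 8 of 731 cells, 9 of them in HFD 2 and 4 in JQF. The cell mixture moved with the level: the Kupffer cluster made up 74.7% of macrophages in NCD, 0 in HFD 1, 17.9% in HFD 2 and 47.8% in JQF. Within cluster 15 alone, the order of the libraries was the same as in the whole class. In the narrower set of subclusters named lipid-associated, which had no NCD cell, the gap between JQF and HFD was smaller: St18 was found in 53 of 146 cells of HFD 1 (79.1 CPM), 80 of 332 cells of HFD 2 (87.6 CPM) and 6 of 19 cells of JQF (55.9 CPM), and the JQF share of positive cells (31.6%) lay between those of the HFD libraries (36.3% and 24.1%).

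DC divided as sharply. Conventional type 1 DC (cDC1), which take up dead cells and activate CD8 T cells, had no St18 UMI in 1116 cells of cluster 24, which allows up to 0.269% positive cells. By the finer grouping, 1 of 640 cDC1 was positive, with 1 UMI in JQF. Cluster 13, the conventional type 2 DC (cDC2), which mainly activate CD4 T cells, had 2.91 CPM in NCD (3 of 78 cells), 56.4 in HFD 1 (53 of 443 cells), 53.5 in HFD 2 (59 of 457 cells) and 24.8 in JQF (44 of 413 cells). There the HFD mean of 54.95 ± 2.04 CPM was 18.9-fold the NCD level and the JQF level was 0.452 of the HFD mean. Much of this came from cells that the finer grouping placed with mature DC: 139 of the 315 UMIs of HFD 1, 174 of 312 of HFD 2 and 43 of 157 of JQF were in DC subcluster 12. In the subclusters named cDC2, the level was 12.2 CPM in NCD (3 of 17 cells), 35.5 in HFD 1 (25 of 232 cells), 18.8 in HFD 2 (10 of 92 cells) and 22.3 in JQF (8 of 73 cells), so that JQF lay between the HFD libraries and the share of positive cells was not higher in HFD than in NCD. Cluster 8, mature DC that express migration genes such as Ccr7 and Fscn1, had 70.1 and 39.9 CPM in the HFD libraries and 25.5 in JQF, and its NCD value of 32.9 CPM came from 10 UMIs of 1 cell among 10. Cycling DC (cluster 18), whose leading genes included the endothelial genes Stab2 and Ptprb, had 10.5 CPM in NCD, 5.15 and 10.8 in the HFD libraries and 4.99 in JQF, with no order between the groups. The NCD value came from 14 UMIs in 2 cells. By the finer grouping, cycling DC had no St18 UMI in 10 NCD cells, 5.27 and 10.7 CPM in the HFD libraries and 5.34 in JQF.

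**Figure D2:**
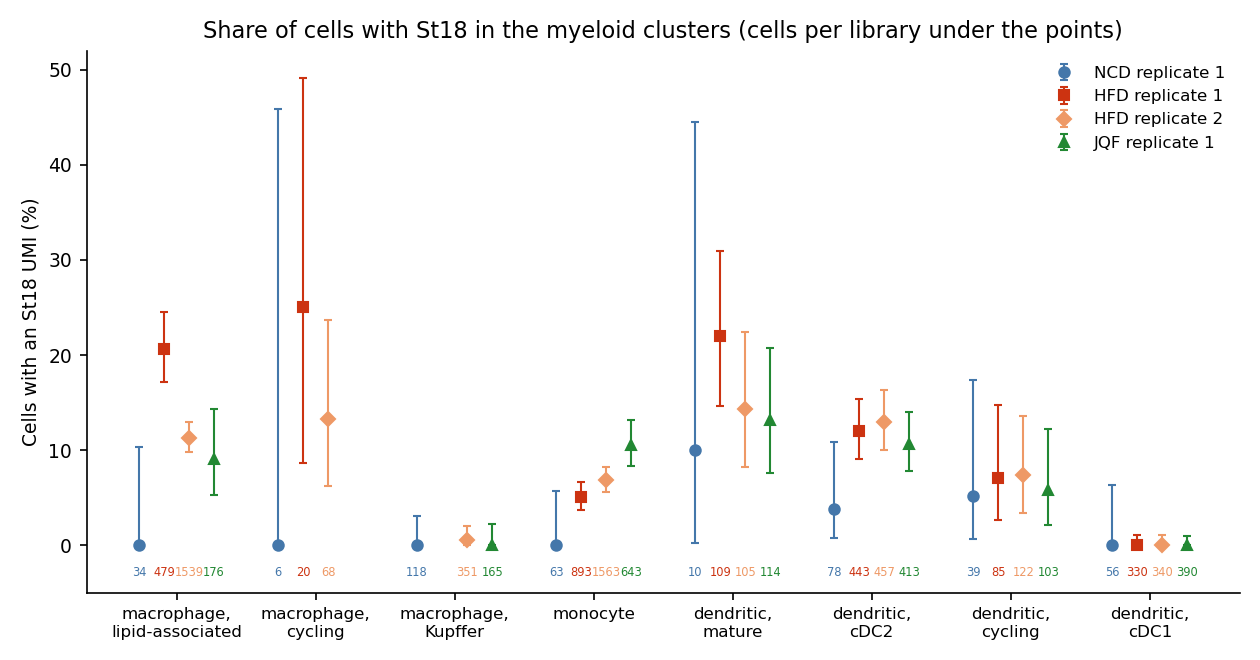
Percent of cells with at least 1 St18 UMI (vertical axis) in each macrophage, monocyte and dendritic cluster, by library, with exact binomial 95% intervals. Points from fewer than 5 cells are left out. The cDC1 and Kupffer clusters lie at or near 0 in every library that has a point. HFD 1 had no cell of the Kupffer cluster. The large macrophage cluster called lipid-associated reaches 20.7% in HFD 1 and 11.3% in HFD 2. Most cells of that cluster were not named lipid-associated by the finer grouping.

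Finer groups within each class concentrated St18 further, and the same caution holds: the groups were formed without St18, but they were described after their St18 levels were known. In macrophages, subcluster 11 (lipid-associated, with Anxa1, Fabp4 and Ctsk among its leading genes) had St18 in 44 of 91 cells of HFD 1, 66 of 136 cells of HFD 2 and 5 of 8 cells of JQF, and it had no NCD cell. Its HFD level was 115.8 ± 22.4 CPM. The HFD libraries, which differed in macrophages as a whole, were alike here in the share of positive cells, 48.4% in the mean. Subcluster 6, in which the recruitment receptor Ccr2 and Cd34 stood out, had 120 CPM in HFD 1, 63.7 in HFD 2 and 23.3 in JQF. These 2 subclusters held 69.0% of the macrophage St18 UMIs in 18.3% of the cells.

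Among monocytes, the circulating kinds were almost empty of St18. Classical monocytes, the Ly6c2-high cells, had it in 2 of 763 cells, and nonclassical monocytes, the patrolling cells, in 1 of 274. Subcluster 8, with Mmp12 (macrophage elastase) and the chemokine Ccl24 among its leading genes, had 59.0 CPM in HFD 1, 212 in HFD 2 and 183 in JQF. Subcluster 13, with Srxn1, Spp1 (osteopontin), Gdf15 and the fatty acid carrier Fabp5 among its leading genes, had 65.8, 67.3 and 87.5 CPM in the same order. Both subclusters met 0 markers of the classical and nonclassical lists, counted against the rest of the class, and stayed unnamed. Together they held 60.1% of the monocyte St18 UMIs in 14.7% of the cells, against 7 UMIs in 1152 cells of subclusters 0 to 4 and 12. Mmp12, Spp1 and Fabp5 are also on the marker list of lipid-associated macrophages. Cadm1, the top leading gene of subcluster 8, is on the cDC1 marker list, and St18 itself was also among the leading genes there. Subcluster 10, whose leading genes included the macrophage markers C1qa, C1qb, C1qc and Mertk, had 34.3 CPM in HFD 1, 29.6 in HFD 2 and 22.0 in JQF, so that JQF lay below both HFD libraries there.

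In the HFD libraries, the highest St18 level of these subclusters was in DC. Subcluster 12, mature DC with Fabp5, the Wnt antagonist Dkk2 and the cystine transporter Slc7a11 among its leading genes, had 322 CPM in HFD 1 (29 of 63 cells), 300 in HFD 2 (28 of 70 cells) and 93.0 in JQF (17 of 54 cells). JQF lay below both, at 0.299 of the HFD mean of 311 ± 15.5 CPM. The NCD value, 296 CPM, came from 1 cell of 2. This subcluster held 52.1% of the DC St18 UMIs in 5.92% of the DC. The other mature DC subcluster (subcluster 1) had St18 in 8 of its 172 cells (4.65%), with 2 of 55 in HFD 1, 2 of 56 in HFD 2, 4 of 54 in JQF and 0 of 7 in NCD.

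**Figure D3:**
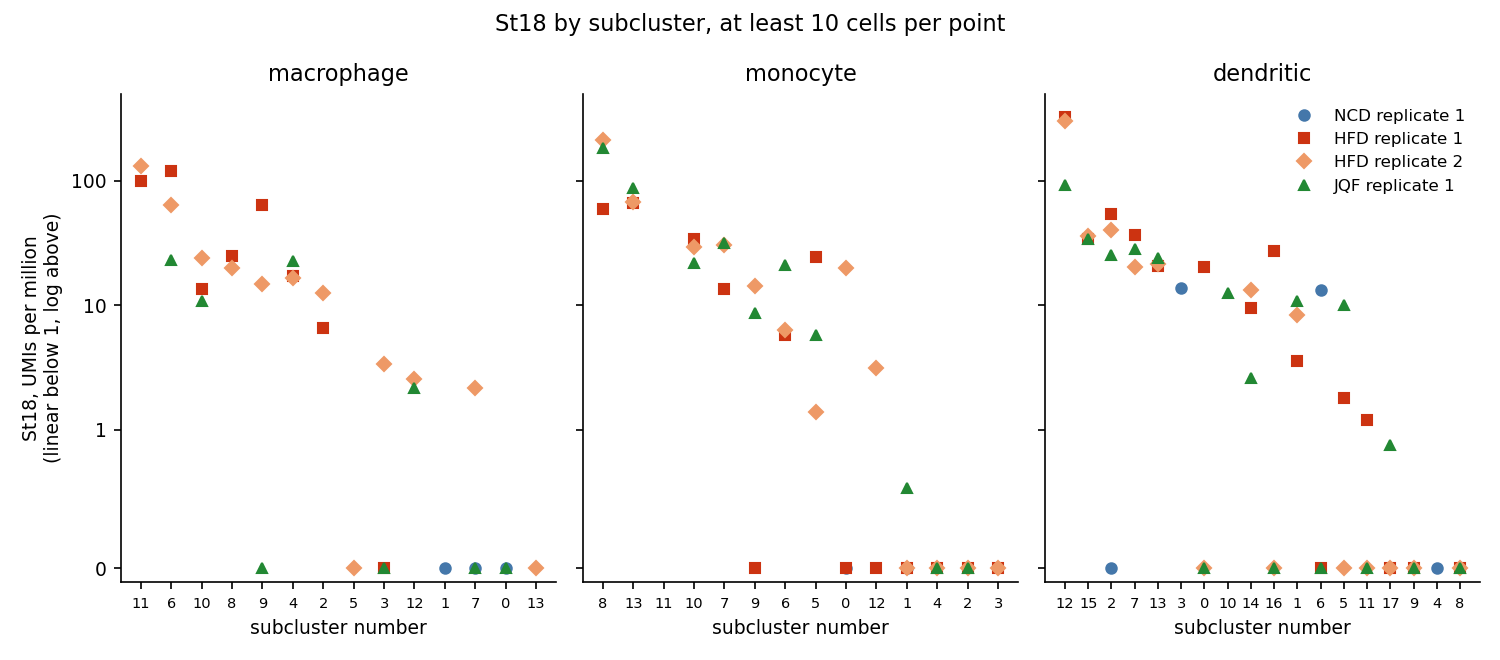
St18 level in CPM in each subcluster of macrophages, monocytes and DC, with 1 point per library of at least 10 cells. Subclusters are ordered by their level over all libraries. DC subcluster 12 stands at 300 CPM or more in both HFD libraries and at 93.0 CPM in JQF.

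St18 was concentrated in few cells with many UMIs each. Positive cells held on average 3.56 UMIs in macrophages, 3.76 in monocytes and 4.89 in DC. For genes with 0.5 to 2 times as many UMIs in the class, the median number of UMIs per positive cell was 1.43, 1.31 and 1.47. Only 0.767%, 0.506% and 1.42% of those genes had as many UMIs per positive cell as St18. The highest single cells held 42 UMIs (a DC of HFD 2), 36 (a monocyte of HFD 2) and 25 (a macrophage of HFD 2).

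In DC and macrophages, the differences between HFD and JQF lay partly in the number of positive cells and partly in the UMIs within them. In DC, the mean per positive cell was 5.76 UMIs in HFD 1, 5.04 in HFD 2 and 3.60 in JQF, beside 8.58%, 8.11% and 6.37% positive cells. The 6 positive DC of NCD held 4.83 UMIs on average, close to HFD 2, beside 3.28% positive cells. In macrophages it was 3.98, 3.41 and 2.53 UMIs. In monocytes, by contrast, it was 2.78 and 3.99 UMIs in the HFD libraries and 4.06 in JQF. The SD among the positive cells of 1 library was between 1.84 and 6.87 UMIs in these 3 classes of the HFD and JQF libraries, so the distributions overlapped widely.

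**Figure D4:**
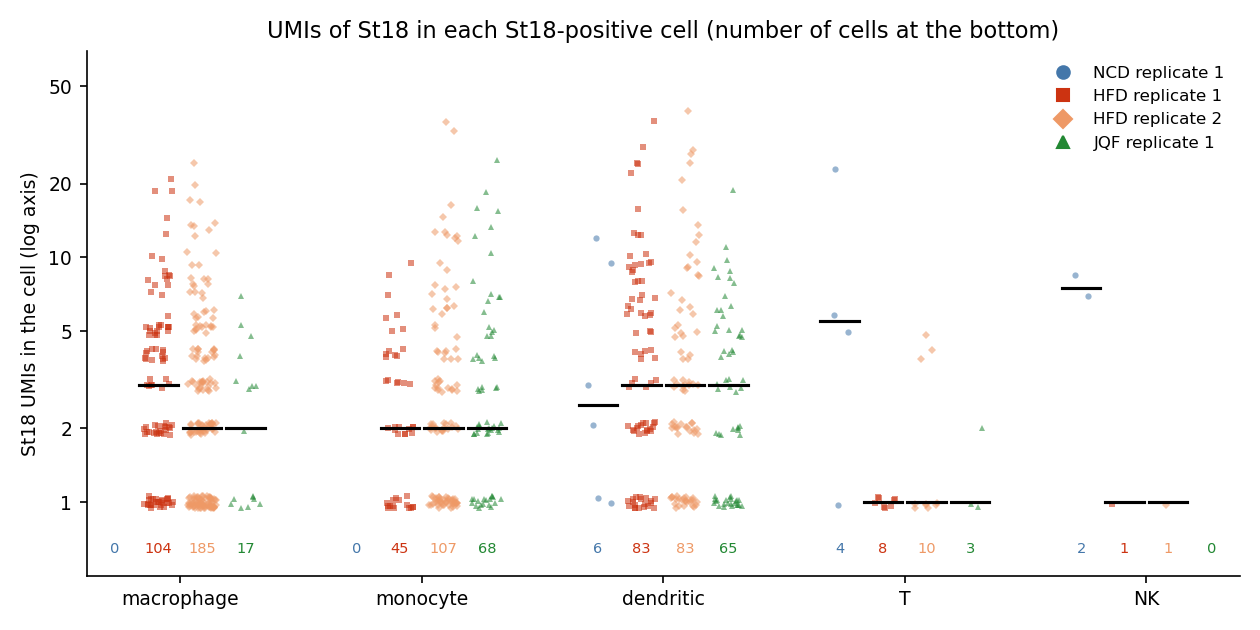
St18 UMIs in each positive cell (vertical axis, logarithmic) by class and library; points are cells with a small jitter, black bars are medians and the number of positive cells stands at the bottom. The medians lie at 2 or 3 UMIs in macrophages, monocytes and DC of the HFD and JQF libraries, and the highest T and NK cells, with 24 and 8 UMIs, are from NCD.

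In NK cells, innate lymphocytes that kill infected or altered cells, and in T cells the order of the diets was the opposite, but it rested on very few cells. NK cells had 12.1 CPM in NCD (2 of 112 cells), 0.310 in HFD 1 (1 of 402 cells), 0.712 in HFD 2 (1 of 228 cells) and 0 in JQF (386 cells, which allows up to 0.777% positive cells). T cells had 4.198 CPM in NCD (4 of 783 cells), 0.529 in HFD 1 (8 of 2081 cells), 1.37 in HFD 2 (10 of 2057 cells) and 0.135 in JQF (3 of 3448 cells). The HFD means were 11.6 CPM below NCD in NK cells and 3.25 CPM below NCD in T cells, against HFD SDs of 0.284 and 0.595 CPM. The share of positive T cells had the same order with smaller gaps between NCD and HFD: it was 0.511% in NCD, 0.486% in HFD 2, 0.384% in HFD 1 and 0.0870% in JQF. For comparison, over all libraries St18 was found in 0.0720% of B cells (1 of 1389) and in 0.113% of endothelial cells (6 of 5326), with a highest share in a single library of 0.344% (1 of 291 B cells of HFD 1). In HFD 1, the share in T cells (0.384%) was thus close to that in B cells. St18 in free RNA, taken from barcodes of at most 100 UMIs, was at 12.7 CPM in HFD 1 and 10.2 in HFD 2, above the T cell levels of those libraries, and at 2.18 CPM in NCD, below the NCD level. The part of this background in the HFD values of T and NK cells was not tested. The T cells of HFD 2 with most St18 held 5 of 3293, 4 of 4518 and 4 of 4855 UMIs. The median depth was 7282 UMIs per cell in T cells, 5926 in B cells and 11187.5 in endothelial cells.

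The NCD levels came from single cells with many UMIs. The 2 NCD NK cells held 8 and 7 UMIs, and 3 of the 4 NCD T cells held 24, 6 and 5 UMIs, which was 97.2% of the T cell total of that library. In HFD 1, every positive T cell held exactly 1 UMI. In HFD 2, the number was 1 in 7 of 10 cells and 5 at most. UMIs of the myeloid marker list were 0 in both NCD NK cells and 0 or 1 in the NCD T cells. The positive NK cells of HFD 1 and HFD 2 held 7 and 5 such UMIs and no Cd3 UMI, and the positive HFD T cells held 0 to 5. Over all T cells, the summed level of 9 macrophage markers was 104.6 CPM in HFD 2, against 18.3 to 26.8 in the other libraries. Without the 3 cells of highest St18 in each library, T cells in HFD lay 0.288 CPM above NCD. For NK cells this setting gives 0 in every library by construction, since none had more than 2 positive cells.

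The NK label itself was doubtful in NCD. Both positive NCD cells lay in a subcluster that expressed the T cell receptor genes Cd3d, Cd3e or Cd3g, with 12 and 21 UMIs of these genes. In NCD, 99 of the 112 cells of the NK cluster (88.4%) lay in subclusters with T cell or endothelial genes, against 12 of 402 and 20 of 228 in the HFD libraries and 123 of 386 in JQF. Outside those subclusters NCD kept 13 NK cells with no St18 UMI. Conventional NK cells (368 cells) and type 1 innate lymphoid cells (211 cells) had no St18 UMI in any library. Among T cells, the CD8 T cells held 44 of the 68 St18 UMIs, of which 24 lay in 1 NCD cell, but only 10 of the 25 positive cells. Positive CD8 T cells were 3 of 135 in NCD (30 UMIs), 0 of 478 in HFD 1, 6 of 706 in HFD 2 (13 UMIs) and 1 of 170 in JQF.

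Outside these classes, the highest levels in a single library came from few cells. They were 5 UMIs in 1 of 37 hepatocytes of HFD 1 and 16 UMIs in 4 of 53 epithelial cells of HFD 2 (10.2 CPM). The unnamed cells of HFD 2 had 6 UMIs in 2 of 23 cells (10.4 CPM). In B cells and endothelial cells, which the choice of the gene did not use, St18 was too low to pass the expression filter and was not tested. Without that filter edgeR's quasi-likelihood test gave adjusted p = 0.725 in B cells and 0.964 in endothelial cells for HFD against NCD. These values carry little information, since the classes held 1 and 6 UMIs.

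The levels of 11317 genes were correlated with St18 over 39 sums of 1 class in 1 library (12 classes, 28 sums with St18), and the 10 genes of highest r are named. This is a description without a p, because the sums share libraries and most of the pattern is the contrast between myeloid and other classes. The closest was Clec4b1, a C-type lectin of myeloid cells (r = 0.79), followed by Lgals3, which encodes galectin-3 (r = 0.77), the chemokine Ccl9 (r = 0.75) and Mcub, a regulator of the mitochondrial calcium uniporter (r = 0.75). Sap30, a subunit of the SIN3 corepressor, followed with r = 0.74. The others were Arhgap22 (r = 0.74), H2-M2 (r = 0.73), Slamf8, a receptor of myeloid cells (r = 0.72), Lyz1 (r = 0.71) and Pianp (r = 0.70). Lyz1 encodes a lysozyme whose sequence is close to that of Lyz2, so its counts are uncertain. The sums include the HFD and NCD sums of the classes tested below. The later tests of Sap30 use the same counts and are not independent of its r.

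**Figure D5:**
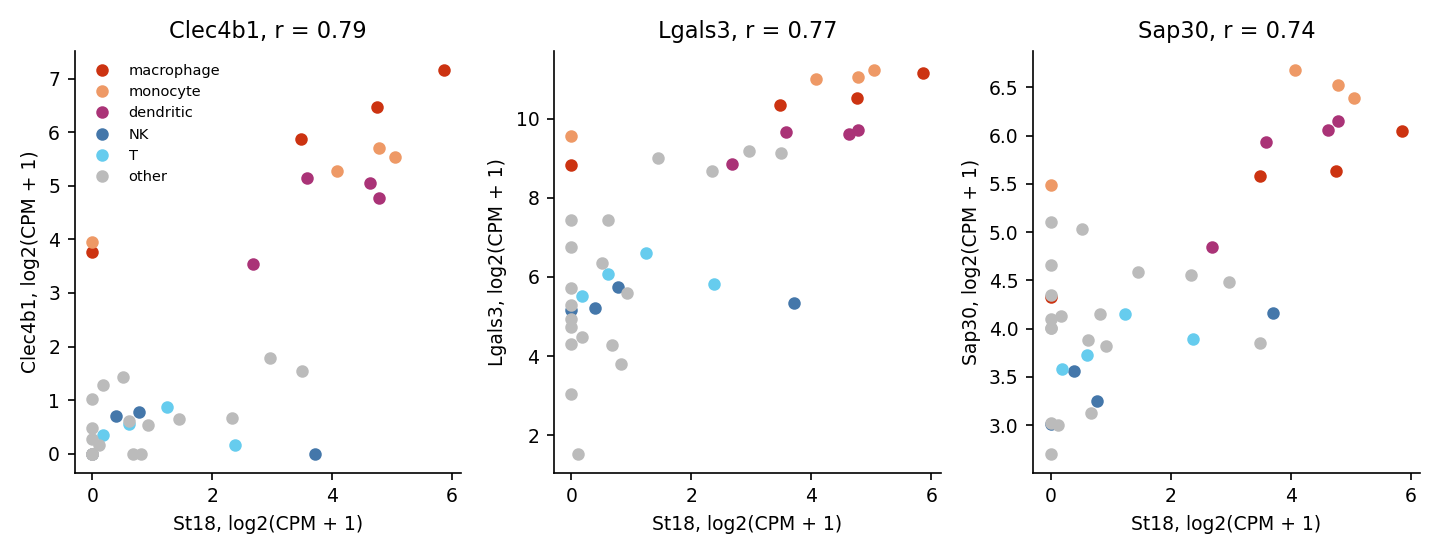
St18 level against the levels of Clec4b1, Lgals3 and Sap30 on log2 axes of CPM plus 1, with 1 point for each of 39 sums of a class in a library. The HFD and JQF sums of macrophages, monocytes and DC lie toward the upper right in each panel. The NCD sums of macrophages and monocytes lie at 0 on the St18 axis. The r values are 0.79, 0.77 and 0.74.

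Positive cells were also compared with negative cells of the same library and subcluster. The share of genes that were higher in positive cells in every one of the 3 libraries was 12.5% in macrophages (1089 of 8733), 15.3% in monocytes (1170 of 7664) and 12.9% in DC (1066 of 8233), beside 12.5% for genes as often higher as lower in each library. The genes of highest ratio below are therefore a description, with no test, and the depth of the cells differed too. Positive macrophages had a median of 16666 UMIs against 10278 in negative ones, and positive monocytes 12826 against 10214, whereas positive DC had fewer (14919.5 against 18020). In macrophages the largest ratios of CPM were those of Anxa1, which encodes a phospholipid-binding protein that limits inflammation (2.86), Eps8, an actin regulator (2.78), Syngr1 (2.29), Frmd6 (2.20) and Zc3h12c (2.18). Frmd6 had a ratio of 1.08 in HFD 2, against 3.75 in HFD 1 and 3.46 in JQF. Anxa1, Syngr1 and Zc3h12c had their highest ratios in JQF (7.53, 10.6 and 8.31), which held 17 of the 303 positive macrophages compared, against 1.54 to 2.98 in the HFD libraries. In monocytes they were Atp6v0d2, a subunit of the proton pump that acidifies lysosomes (6.78), the creatine transporter Slc6a8 (6.003), the predicted gene Gm6209 (4.24), the kinase Rps6ka2 (3.79) and the cyclin Ccnd1 (3.27). The Rps6ka2 ratio rested on JQF, with 20.1 there against 1.10 in HFD 1 and 1.02 in HFD 2. In DC they were Srxn1, an antioxidant enzyme (4.74), Ms4a7 (4.14), Pla2g7, a secreted phospholipase (3.82), the kinase Fam20c (3.58) and the transcription factor Ehf (3.25). The Ms4a7 ratio was 10.4 in HFD 1, against 2.45 in HFD 2 and 1.93 in JQF. Atp6v0d2 and Gm6209 were highest in JQF (20.6 and 12.7), with 2.53 to 6.39 in the HFD libraries. The lists of the 3 classes had no gene in common. In T cells, only HFD 2 had enough positive cells to compare, and the leading genes there, Wdfy3, Zbtb34, Rangrf, 5330417C22Rik and Slc24a3, were each found in 12% to 16% of the 25 positive cells, which is too few to describe.

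Gene lists for the corepressors and signals named at the start were then compared between the groups. They were chosen with earlier results of these data known, and membership does not mean work with this family of factors. The test was edgeR's quasi-likelihood test on UMI counts summed per library and class. The lists were the SIN3 and histone deacetylase corepressor (15 genes), the LSD1 and CoREST corepressor (8 genes), the Notch pathway (25 genes) and inflammatory cytokines with the TNF signal (19 genes). The comparisons HFD against NCD and JQF against HFD share the HFD libraries, and with 1 residual degree of freedom the p-values measure little more than the spread of that pair. Over the 5 classes, 79 of 289 gene and class pairs passed the test in HFD against NCD, 21 higher and 58 lower in HFD, beside 18.5% of all genes tested in these classes. Lower genes also led among all genes that passed in NK cells (1393 lower, 737 higher) and T cells (851 and 403). The numbers were nearer to even in macrophages (550 and 489), monocytes (1327 and 1268) and DC (2664 and 2521). In JQF against HFD, 12 passed, beside 1.43% of all genes tested, and all 12 were higher in JQF. These lay in monocytes, DC and NK cells. There, 152, 65 and 410 of all genes passed higher and 140, 8 and 80 lower. The split of the list calls was 10 higher and 3 lower without scaling factors, and 8 higher and 2 lower with DESeq2 size factors.

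In macrophages, 6 of 58 tested list genes passed in HFD against NCD, 1 higher and 5 lower, beside 8.15% of all genes tested. Sap30, the SIN3 subunit that followed St18, rose from 19.1 CPM in NCD to 65.2 and 48.5 in HFD and was 46.9 in JQF (log2 difference of HFD over NCD 1.67 ± 0.26 SE, edgeR adjusted p = 0.0425). Arid4b, another SIN3 subunit, fell (log2 -1.23), and the SIN3 list counted 1 higher and 1 lower of 15. The inflammatory list had 3 of 19 lower and none higher: Tnf fell by 2.49, Il6 by 3.60 and the chemokine Ccl2 by 2.13 on the log2 scale. Its median difference was -0.82, against 0.05 over all genes. These sums mix macrophage kinds in unlike shares, with the Kupffer cluster at 74.7% of the class in NCD against 0 and 17.9% in the HFD libraries, and the part of this mixture in the calls was not tested. Tnf had 493 CPM in NCD, 187 in JQF, and 64.7 and 97.9 in the HFD libraries. The Notch ligand Dll4 fell as well, as 1 of 17 tested Notch genes, from 5.41 CPM in NCD to 0.138 and 0.124 in HFD. Without the subclusters that carried genes of another type its NCD level was 0.429 CPM, and it was too low there to be tested. In JQF against HFD, 0% of all genes tested passed in macrophages by edgeR (0 of 12753, with 1025 at an unadjusted p under 0.05), and no list gene did.

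In monocytes, 23 of 56 tested list genes passed, 8 higher and 15 lower in HFD, beside 20.6% of all genes tested. Sap30 rose here too, from 43.7 CPM to 101.5 and 90.9 (log2 1.11 ± 0.26 SE, edgeR adjusted p = 0.00388), and so did the deacetylase Hdac2 (log2 1.82), while Arid4b fell (log2 -0.99). In the Notch list, 7 of 15 tested genes fell and 2 rose. The target gene Hes1 fell from 249 CPM in NCD to 77.1 and 37.2 in HFD (log2 -2.17), the receptors Notch1 and Notch2 fell by 0.88 and 1.18, and the coactivators Maml1, Maml2 and Maml3 fell by 1.09, 1.67 and 0.91. The sheddase Adam10 and the gamma-secretase subunit Psen2 rose, by 0.66 and 1.15, and neither passed with DESeq2 size factors. The inflammatory list split, with 4 genes higher and 6 lower of 19: the chemokines Ccl2 (2.14), Ccl3 (0.74) and Ccl4 (0.94) and Casp8 (0.97) rose, and Il1a (-2.12), Il1b (-1.26), Il6 (-2.52), Nlrp3 (-1.25), Ripk1 (-1.57) and Nfkb1 (-0.94) fell. With DESeq2 size factors Ccl3 no longer passed (edgeR adjusted p = 0.0677). The NCD side of this comparison rests on 63 cells, of which 27 (42.9%) were nonclassical monocytes, against 4.48% in HFD 1 and 10.9% in HFD 2. The part of that mixture in these calls was not tested. In JQF against HFD, 4 of the 56 passed, beside 2.32% of all genes tested: Il1a (log2 1.04), Cxcl1 (1.51), Cxcl2 (1.39) and the inflammasome sensor Nlrp3 (0.96) were higher in JQF, of which Il1a no longer passed with DESeq2 size factors (edgeR adjusted p = 0.0931). St18 was likewise higher in JQF monocytes before thinning.

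In DC, 27 of 64 tested list genes passed, 8 higher and 19 lower in HFD, beside 34.3% of all genes tested. The SIN3 list had 6 of 15 genes higher and 1 lower: Sap30 (27.7 CPM in NCD, 70.2 and 65.6 in HFD, log2 1.44 ± 0.15 SE, edgeR adjusted p = 0.00115), Suds3 (0.74), Brms1 (0.70), Sap30l (0.64), Sin3b (0.60) and Hdac2 (0.55) rose and Arid4b (-0.79) fell. NCD DC also carried 1632 CPM of summed endothelial markers, against 50.7 to 61.1 in the other libraries. Without the subclusters that carried genes of another type, Sin3b, Hdac2 and Brms1 no longer passed and Sap30, Suds3 and Sap30l did. Without scaling factors Sin3b, Hdac2, Sap30l and Brms1 did not pass, and Sap30 and Suds3 did. The Notch list had 8 of 22 genes lower and 1 higher. Of these, Rbpj (-0.85), Maml1 (-1.20) and Maml2 (-2.01) passed also without those subclusters, whereas Notch1, Notch2, Dll4, Hes1, Nrarp and Numb did not. The inflammatory list had 9 of 19 genes lower, among them Ripk1 (-1.53), Nlrp3 (-1.71) and Tnfaip3 (-1.17), and Casp8 (0.56) higher. Casp8 no longer passed without scaling factors or with DESeq2 size factors, and Il1b and Nfkb1, 2 of the lower genes, no longer passed with the latter. Without the subclusters that carried genes of another type, Il1a was the 1 inflammatory gene that no longer passed, and Arid4b still did. Over the lists, 16 of the 27 calls were kept and 11 lost there, and Ing2, Jag1, Jag2, Maml3, Cxcl2 and Ccl3 were lower there alone. In JQF against HFD, 3 of the 64 passed, beside 0.483% of all genes tested, and these were the chemokines Cxcl1 (2.08), Cxcl2 (1.84) and Ccl2 (1.29), all higher in JQF. None of the 3 passed without scaling factors or with DESeq2 size factors (adjusted p = 0.0502 to 0.166), although their direction was kept.

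In NK cells, 17 of 52 tested list genes passed, 3 higher and 14 lower in HFD, beside 19.7% of all genes tested (737 higher and 1393 lower). The cytokine Tnf rose from 73.3 CPM in NCD to 240 and 172 in HFD (log2 1.32), while Ccl3 (-1.90), Ccl4 (-1.04), Tnfrsf1b (-2.17) and Tnfaip3 (-1.61) fell. The share of cells in this cluster with a UMI of Cd3d, Cd3e or Cd3g was 57.1% in NCD, 48.4% in JQF, and 10.7% and 20.2% in the HFD libraries. Without the mixed subclusters, which left 13 NCD cells, 6 of the 17 remained: Rbpj, Tnf, Ccl3, Tnfaip3, Tnfrsf1b and Nfkb1. Tnfrsf1a, lower in HFD with all cells, passed there in the opposite direction, with 0 CPM in the 13 NCD cells against 37.2 and 36.3 in HFD. In JQF against HFD, 5 of the 52 passed, beside 4.53% of all genes tested (410 higher and 80 lower). Ccl3 (1.99), Ccl4 (1.47), Tnfrsf1b (1.52), Tnfaip3 (0.94) and the Notch regulator Dtx1 (1.79) were higher in JQF, and Tnfaip3 and Dtx1 no longer passed without the mixed subclusters.

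In T cells, 6 of 59 tested list genes passed, 1 higher and 5 lower in HFD, beside 8.45% of all genes tested (403 higher and 851 lower). The Notch genes Rbpj (-1.25), Maml1 (-1.13) and Maml3 (-1.02) fell, as did the TNF receptor Tnfrsf1b (-1.10) and Nfkb1 (-1.72), and Cxcl2 rose (1.21). No SIN3 or LSD1 gene passed in T cells. The T clusters had unlike shares in the libraries. Cluster 14 made up 15.3% of T cells in NCD, against 0.0481% in HFD 1 and 0.0972% in HFD 2. Cluster 25 made up 31.9% against 15.1% and 14.8%, and cluster 6 made up 17.1% against 24.5% and 36.0%. The part of this mixture in the calls was not tested. In JQF against HFD none of the 59 passed, beside 0.593% of all genes tested.

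Across the 5 classes, Sap30 rose in HFD macrophages, monocytes and DC and did not pass in NK or T cells. The difference between the classes was not tested. The r of Sap30 with St18 came from sums of these same libraries and classes, so this rise is no independent evidence of a link between them. The Sap30 level was also higher in HFD than in NCD in endothelial and B cells, where St18 was near 0 and which the list tests did not cover. It was 7.01 CPM in NCD against 24.3 and 16.5 in endothelial cells, and 5.53 against 7.75 and 15.1 in B cells. In NK cells it was lower in HFD, at 16.9 CPM in NCD against 10.8 and 8.54. In T cells it was 13.9 CPM in NCD against 12.3 and 16.8. Arid4b fell in the 3 myeloid classes and in NK cells, where it no longer passed without the mixed subclusters. In the LSD1 list, Gse1 fell in monocytes (log2 -0.81).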

How the data were processed

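Single-cell libraries of 4 mouse livers were analysed. The authors deposited UMI counts per gene and barcode from Cell Ranger (6.0.1 in the submitters' notes, with mm10 and Seurat 4.0.3; the file headers name other releases), and every gene had the same total over the called barcodes in the filtered and unfiltered tables. Kept cells had at least 500 genes and at most 20% mitochondrial UMIs; barcodes with the highest Scrublet scores, 0.8% per 1000 barcodes, were removed as doublets, since its own threshold marked as few as 0.0111% in a library. Cells were clustered with scanpy 1.11.5 on 2000 variable genes without St18 (30 components, 15 neighbours, Leiden resolution 1), and again within each class. A name needed at least 3 markers, each in 10% of the cells and 2-fold higher than elsewhere. Subclusters outside the T class were called mixed, after they were seen, where the mean detection of Cd3d, Cd3e and Cd3g reached 40% of cells. So were those with 2 endothelial, hepatocyte, T, B or epithelial markers of another class among their 10 leading genes. Markers of other myeloid classes did not count, so DC subcluster 2, with C1qa and C1qb among its leading genes, was not called mixed.

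CPM is the UMIs of a gene scaled to 1000000 UMIs of the class. Intervals are exact (Clopper-Pearson or Poisson, 95%), a count of 0 was bounded at 3 UMIs or cells, and both cover counting error only. Counts summed per library and class were tested with edgeR 4.0.16 (quasi-likelihood, TMM, filterByExpr, Benjamini-Hochberg, threshold 0.05); the procedure was tested on simulated data. Alternatives included DESeq2 1.42.0, other filters and scalings, thinning and leaving out an HFD library. Named genes were the fixed lists, the 10 genes of highest Pearson r with St18 on log2(CPM + 1) with a mean of at least 5 CPM, and the 5 genes per class with the highest ratio between positive and negative cells, found in at least 10% of the positive cells. St18 and the lists were chosen with earlier results of these data known. The labels call the HFD pair replicates, and the paper counts them as separate liver samples. The p-values measure only the spread between those samples. The result for 1 gene of the LSD1 list is not reported here.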

Additional observations from a re-analysis of the deposited data

Results flagged for a closer look

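St18 moved in opposite directions with the high-fat diet in different classes. The HFD mean minus NCD was 41.5 CPM in macrophages, 21.2 in monocytes and 19.7 in DC, but -11.6 in NK cells and -3.25 in T cells. The difference in direction was not tested, and St18 was chosen for it. The NCD value in NK cells came from 2 cells with Cd3 UMIs, and the difference was 0.555 CPM without the mixed subclusters. In T cells it was 0.288 CPM without the 3 highest cells of each library. With the formula, JQF minus the HFD mean was 10.9 CPM in monocytes, against -31.3 in macrophages, -14.1 in DC, -0.511 in NK cells and -0.814 in T cells. This difference between classes was not tested either, and the monocyte value changed sign when cells were thinned to equal depth.

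St18 was also found in barcodes that hold no cell. In barcodes of at most 100 UMIs, which carry mostly free RNA, its level was 12.7 CPM in HFD 1 (exact Poisson 95% interval 9.49 to 16.6) and 10.2 in HFD 2 (8.02 to 12.7), above the 2.18 of NCD (1.13 to 3.81). The JQF level was 3.96 CPM (2.54 to 5.89).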

How the results depend on the processing

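Apart from leaving out a library, the 10 St18 differences were recomputed under 94 alternatives in all, of which 72 kept the sign and moved by less than the HFD SD, 16 moved by more and 6 changed sign. All 10 alternatives for each macrophage difference and all 9 for HFD minus NCD in monocytes were among the 72, although the NCD value was no longer 0 under 1 alternative in each class. The limit for a move was the HFD SD of the class, which was widest in macrophages and next widest in monocytes. Moves that stayed within it there were in part larger than moves that exceeded it in DC. The counts therefore do not rank the classes by stability. Sign changes were as follows: JQF minus HFD in monocytes was -0.951 CPM after thinning, and in NK cells 0.679 with predicted doublets kept. HFD minus NCD in NK cells was 0.586 with at least 1000 genes and at most 10% mitochondrial UMIs, 0.516 with each library clustered on its own and 0.555 without the mixed subclusters, and in T cells 0.288 without the 3 highest cells. The cause was not tested. Without the mixed subclusters NCD had 13 NK cells with no St18 UMI, which allows up to 27.4 CPM, so the sign there is not settled. In DC, HFD minus NCD was 26.9 CPM after thinning, and 21.9 without mixed subclusters and 52.05 within cluster 13 (the latter settings were chosen after seeing the data). JQF minus HFD in DC was -16.2 with doublets kept, -10.9 without the 3 highest cells, -18.8 after thinning and -30.1 within cluster 13. In NK cells, HFD minus NCD was -11.9 with doublets kept and -11.9 after thinning, -12.4 with TMM and 0 without the 3 highest cells, and JQF minus HFD was 0 after thinning and 0 without those cells (0 is fixed without those cells, since no library had over 2 positive NK cells). In T cells, HFD minus NCD was -4.34 with at least 1000 genes and -4.64 with separate clustering, and JQF minus HFD was -1.45 after thinning. Leaving out 1 HFD library cannot move a mean of 2 by more than their SD, so it is given as ranges only: 26.0 to 57.1 CPM for HFD minus NCD in macrophages, and for JQF minus HFD -46.9 to -15.8 in macrophages (without HFD 2 and HFD 1), 5.64 to 16.2 in monocytes (without HFD 1 and HFD 2), -0.712 to -0.310 in NK cells (without HFD 1 and HFD 2) and -1.23 to -0.394 in T cells (without HFD 1 and HFD 2).

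List calls for HFD against NCD were 53 (DESeq2) to 104 (no expression filter), against 79. Without mixed subclusters they were 64, of which 56 were shared. For JQF against HFD they were 32 without the filter and 7 with doublets kept, against 12. Scaling without TMM shifted the median of all genes by up to 0.19 on the log2 scale. List calls without an HFD library were not run, because no residual degree of freedom would remain. No paired analysis was possible because the groups share only replicate number 1. NCD values rest on few cells, 63 monocytes and 158 macrophages.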
